A study of Mus musculus with 2 samples.

Results

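The miR-378 family of the mouse was measured here as 4 microRNA precursors, listed as mmu-mir-378a, mmu-mir-378b, mmu-mir-378c and mmu-mir-378d (miR-378a to miR-378d below), of 1187 precursors in all. A precursor is the hairpin from which the mature microRNA is cut. They were taken by name and not by a limit on their values, though earlier results of these data were known. The measurement was small RNA sequencing of hindlimb muscle collected 1 day after ischemia had been caused by removal of the femoral artery. The hypercholesterolemic library (HC) came from Apoe-/- mice, kept on a high-fat diet according to the study's design text. The normocholesterolemic control library (NC) came from C57Bl/6 mice with a control genotype. Both groups had undergone the surgery. The labels used here give no diet for NC, no background strain for the Apoe-/- mice, no age and no number of animals in a library. Genotype and diet therefore cannot be told apart, and with 1 library per group the spread between animals is unknown. No test was run, and every interval below is a nominal 95% interval of counting error.

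miR-378a is transcribed from an intron of Ppargc1b, a gene that encodes a transcriptional coactivator of mitochondrial biogenesis and oxidative metabolism. In mice, the microRNAs cut from this hairpin are known to repress Crat, which encodes carnitine acetyltransferase of fatty acid metabolism, and Med13, which encodes a subunit of the Mediator complex. In mouse myoblasts miR-378 promotes differentiation by repressing MyoR. Mature microRNAs recognise their targets mainly through the seed, a short stretch near the 5′ end, so relatives that differ there can differ in their targets.

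The mature sequences show how close the relatives are and where they part. RefSeq (GRCm38.p6) gave 3 of the 4 members, printed 5′ to 3′ with the seed (bases 2 to 8) in capitals.
miR-378b: cUGGACUUggagucagaaga
miR-378c: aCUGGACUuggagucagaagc
miR-378d: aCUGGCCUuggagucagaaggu
The 3 seeds differ from each other. miR-378b begins 1 base later than miR-378c, so its seed is shifted by that base although 19 of the 20 aligned bases are identical. Counted from the 5′ end of miR-378c, the difference is C21A. miR-378d shares 19 of 21 aligned bases with miR-378c, and differs by A6C, which falls in the seed, and by C21G. A stretch of 19 bases is common to miR-378b and miR-378c, and a stretch of 14 bases is common to all 3. miR-378a was not compared by sequence here.

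The hairpins are shown because the mature sequence, in capitals here, does not sit on the same side of each loop.
miR-378b hairpin: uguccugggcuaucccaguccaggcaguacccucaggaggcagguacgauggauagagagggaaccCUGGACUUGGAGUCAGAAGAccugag
miR-378c hairpin: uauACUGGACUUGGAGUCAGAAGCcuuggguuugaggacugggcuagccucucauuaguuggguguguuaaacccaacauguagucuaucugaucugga
miR-378d hairpin: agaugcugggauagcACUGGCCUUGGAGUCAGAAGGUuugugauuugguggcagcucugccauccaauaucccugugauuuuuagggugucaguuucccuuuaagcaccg
The annotated product lies towards the 3′ end of the miR-378b hairpin, at bases 67 to 86, and towards the 5′ end of the other two, at bases 4 to 24 of miR-378c and 16 to 37 of miR-378d. The predicted folding energy was -31.1 kcal/mol for miR-378b, -27.0 for miR-378c and -35.0 for miR-378d, for hairpins of 92, 99 and 110 bases. Within the mature stretch, 15 of 20 bases of miR-378b were paired in the predicted fold, 15 of 21 of miR-378c and 13 of 22 of miR-378d. A read count of a hairpin sums both of its arms, and a read confined to the 19 shared bases matches miR-378b and miR-378c equally. Whether such a read also matches miR-378a was not examined. The labels do not say how such reads were assigned, so the split of counts between members is uncertain. Copies of other microRNAs had nearly equal counts, such as miR-133a-1 with 2128550 in HC and miR-133a-2 with 2127966. Whether a read was counted in several members was not tested, so the counts of members may overlap.

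The family was spread over 4 chromosomes, and each member had a different genomic setting in mm10 (GENCODE M21). The miR-378a hairpin lies at chr18:61397835-61397900 on the minus strand, the strand of Ppargc1b, in an intron of that gene. An unnamed miRNA gene model, Gm25301, covers the same place on the plus strand. The miR-378b hairpin lies at chr11:88352773-88352864 on the plus strand, within an intron of Msi2, which encodes an RNA-binding protein and runs on the opposite strand. The miR-378c hairpin lies at chr14:46954830-46954928 on the minus strand, opposite to its surrounding gene Samd4, another gene of an RNA-binding protein, and touches none of its exons. The miR-378d hairpin at chr10:126710282-126710391, on the minus strand, overlaps no other annotated gene. Its nearest protein-coding gene, Atp23, is 158.0 kb away. Only miR-378a is thus in the same orientation as a surrounding gene.

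The family was well above the counting limit in both libraries, and miR-378a carried most of it. miR-378a had 334406 counts in HC and 468768 in NC. That is 10232 CPM in HC and 11199 CPM in NC, where CPM is the count divided by the library size as scaled by the trimmed mean of M-values (TMM) and multiplied by 1e6. It ranked 16 of 1187 precursors in both libraries. When copies and overlapping precursors were counted once, it ranked 13 in both, among the microRNAs with the most counts in these libraries. Whether counts of different sequences reflect their amounts equally was not tested.

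The other 3 members had several times fewer counts. miR-378a was 6.78-fold above miR-378c in HC and 6.64-fold in NC, and 12.5-fold above miR-378b in HC and 10.9-fold in NC. miR-378c had 49291 counts in HC and 70612 in NC, or 1508 CPM in HC and 1687 CPM in NC. miR-378d had 33684 counts in HC and 54716 in NC, or 1031 CPM in HC and 1307 CPM in NC. miR-378b had 26817 counts in HC and 43095 in NC, or 821 CPM in HC and 1029.6 CPM in NC. The order miR-378a, miR-378c, miR-378d, miR-378b was the same in both libraries. It was also the same per base of hairpin, at 155, 15.2, 9.37 and 8.92 CPM per base in HC and 169.7, 17.0, 11.9 and 11.2 in NC. All 4 members exceeded the minimum of 10 CPM, averaged over both libraries, that defined the 222 compared precursors.

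**Figure D1:**
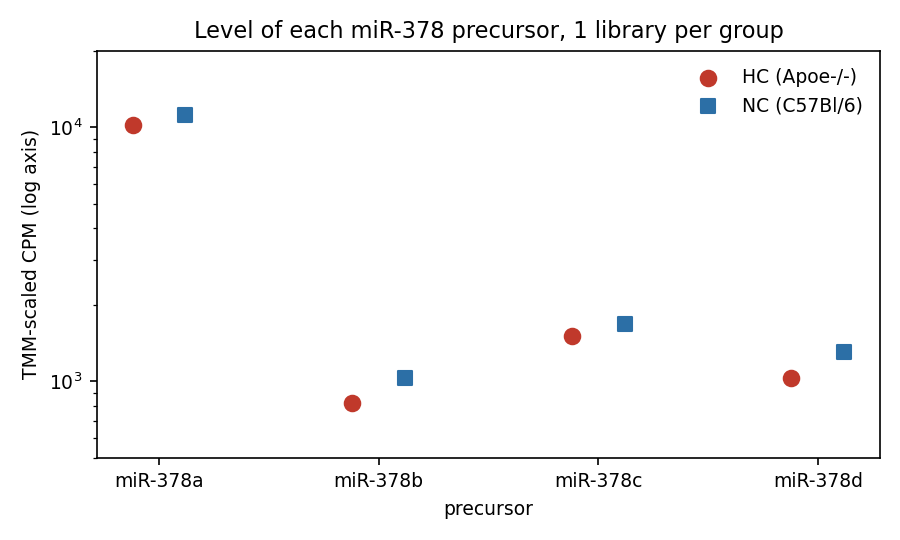
TMM-scaled CPM of each precursor on a log axis, with 1 point for the HC library (red circle) and 1 for the NC library (blue square). miR-378a lies at 10232 CPM in HC and 11199 CPM in NC, and the other 3 members between 821 and 1687 CPM.

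All 4 members had lower TMM-scaled values in HC than in NC, by small amounts. The log2 fold of HC over NC was -0.13 for miR-378a (-0.14 to -0.12), which is 8.64% lower in HC. It was -0.16 for miR-378c (-0.18 to -0.15), or 10.6% lower. miR-378b had -0.33 (-0.35 to -0.31), or 20.3% lower, and miR-378d had -0.34 (-0.36 to -0.32), or 21.2% lower. miR-378a and miR-378c thus lay closer to 0 than miR-378b and miR-378d. The counting intervals of miR-378b and miR-378d overlap, whereas those of miR-378a and miR-378c do not, so the 4 members are not 2 groups of equal values.

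None of the 4 was past 1.5-fold in either direction, the limit that 7.21% of the 222 compared precursors passed, and none was past 2-fold, which 2.25% passed. The intervals of all 4 lay below equality, as did those of 43.7% of compared precursors. That share depends on the scaling, being 21.2% with plain totals and 59.0% with the authors' denominators. Over all compared precursors the lower quartile was -0.16 and the upper quartile 0.18. Of the 222, 21 had a lower log2 fold than miR-378d (9.46%), 23 than miR-378b (10.4%), 54 than miR-378c (24.3%) and 65 than miR-378a (29.3%). This order does not depend on the scaling.

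**Figure D2:**
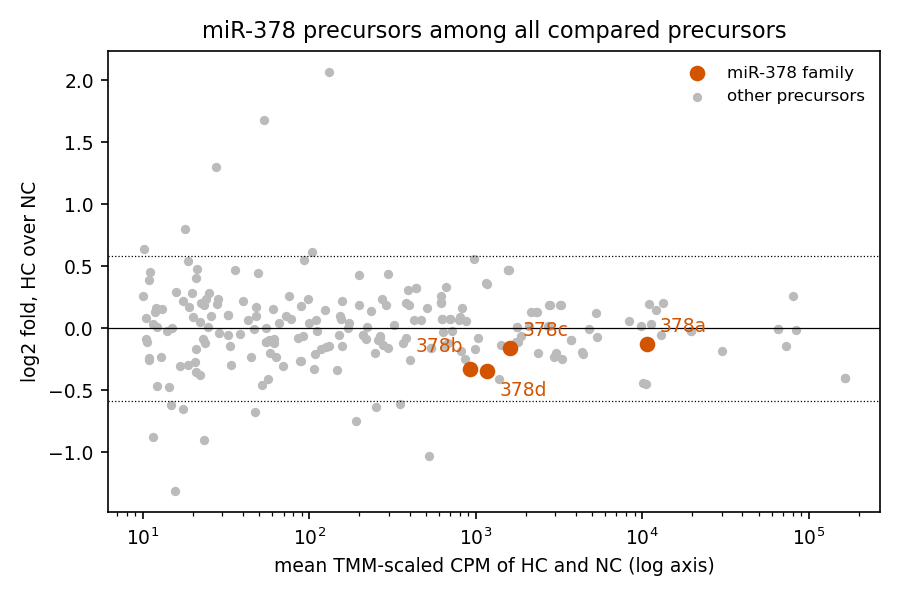
Log2 fold of HC over NC against mean TMM-scaled CPM (log axis) for the 222 compared precursors, with the miR-378 family in orange and the others in grey. The dotted lines mark 1.5-fold, and all 4 members lie below 0 and inside the lines.

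The summed family was lower in HC under every scaling tried, but by an amount that depended on the scaling of the libraries. The 4 members together had 444198 counts in HC and 637191 in NC, or 1.42% of all precursor counts in HC and 1.45% in NC. A read counted in several members would enter this sum several times. The sum was 13591 CPM in HC and 15223 CPM in NC with TMM, a log2 fold of -0.16 (-0.17 to -0.16). With plain totals it was -0.03, and with the authors' denominators it was -0.28. miR-378a was -0.13 with TMM, but 0.0038 (-0.0026 to 0.010) with plain totals and -0.24 with the authors' denominators. miR-378c was -0.03 with plain totals and -0.27 with the authors' denominators. miR-378b ranged from -0.44 to -0.19 and miR-378d from -0.46 to -0.21 over the scalings tried. miR-378b, miR-378c and miR-378d were below 0 under every scaling tried. miR-378a was below 0 under all of them except plain totals, where its interval held 0, so its direction is not firm. The plain totals, which also underlie the shares of 1.42% and 1.45%, add both miR-486a and miR-486b. Each of these had the same 4626450 counts in HC and 7839973 in NC.

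**Figure D3:**
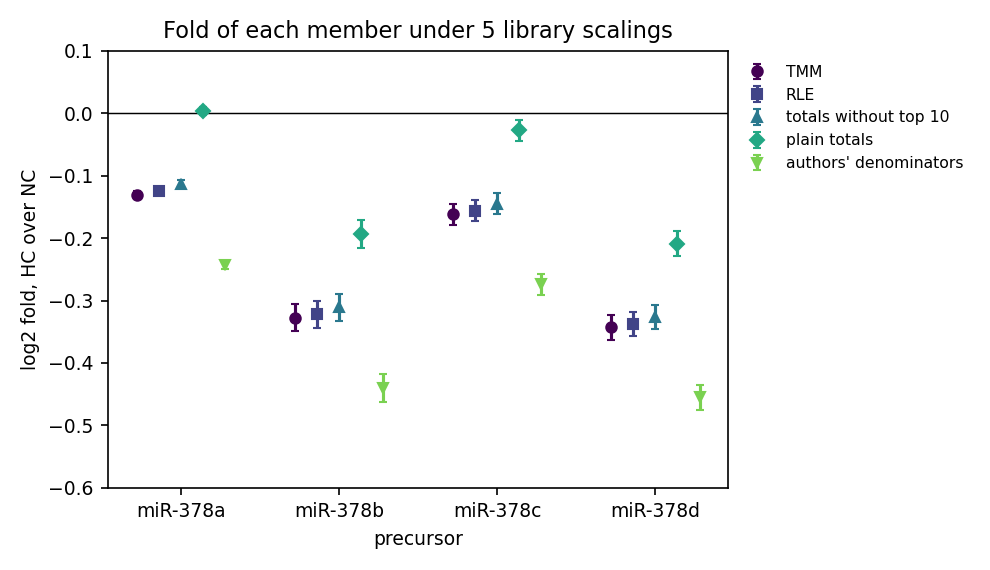
Log2 fold of HC over NC of each precursor under 5 library scalings, with nominal 95% counting intervals as bars. Plain totals place miR-378a at 0.0038 and miR-378c at -0.03, whereas miR-378b and miR-378d stay at or below -0.19.

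The composition of the family, which no scaling can change, differed between the libraries. For every 100 counts of miR-378a there were 8.02 of miR-378b in HC and 9.19 in NC, a log2 difference of -0.20 (-0.22 to -0.17). For miR-378d there were 10.1 in HC and 11.7 in NC, a difference of -0.21 (-0.23 to -0.19). Both minor members were therefore scarcer relative to miR-378a in HC, by 12.8% and 13.7%. For miR-378c there were 14.7 in HC and 15.1 in NC, a difference of -0.03 (-0.05 to -0.01), or 2.1% less. These ratios and their intervals take each read as counted in a single member, which was not tested.

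The ratios among the minor members follow from the same counts and add no separate observation. miR-378d stood to miR-378b at 126% in HC and 127% in NC, and the interval of the log2 difference of -0.02 held 0 (-0.04 to 0.01). miR-378c stood to miR-378b at 184% in HC and 164% in NC, a log2 difference of 0.17 (0.14 to 0.19). miR-378d stood to miR-378c at 68.3% in HC and 77.5% in NC, a log2 difference of -0.18 (-0.21 to -0.16). Of the 6 pairs of members, the 2 pairs with the smallest differences were miR-378b with miR-378d and miR-378a with miR-378c.

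As shares of the family, miR-378a held 75.3% in HC (75.2 to 75.4%, exact binomial interval) and 73.6% in NC (73.5 to 73.7%). The share intervals also take each read as counted in a single member. miR-378c took 11.1% in both libraries, with intervals of 11.0 to 11.2% in each. miR-378d took 7.58% in HC (7.51 to 7.66%) and 8.59% in NC (8.52 to 8.66%), and miR-378b took 6.04% in HC (5.97 to 6.11%) and 6.76% in NC (6.70 to 6.83%). miR-378b and miR-378d, which had like folds, have different seeds and their products come from opposite arms of the hairpins. With 1 library per group, the size of such shifts between animals of 1 group is not known.

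**Figure D4:**
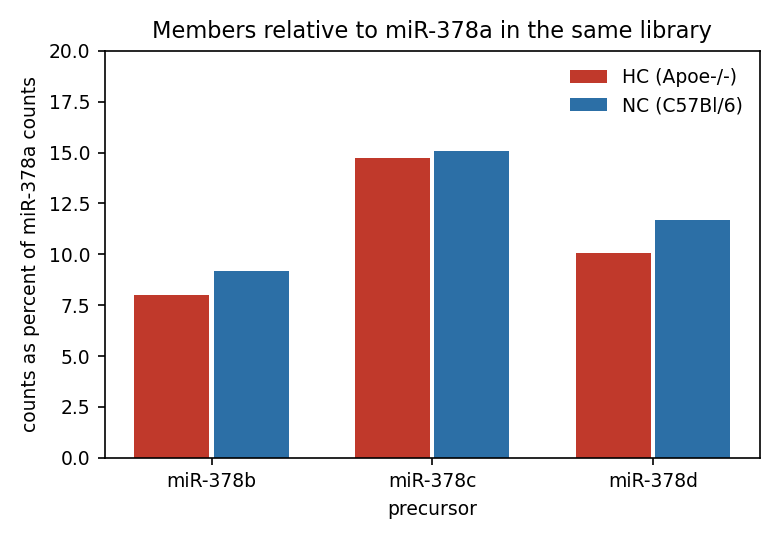
Counts of miR-378b, miR-378c and miR-378d as a percentage of miR-378a counts in the same library, HC (red) left of NC (blue). The bars of miR-378c are nearly level, at 14.7% in HC and 15.1% in NC, and those of miR-378b and miR-378d are lower in HC.

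The fold of miR-378 members varied about as much as in other microRNA families of this muscle. Among 9 families with at least 3 compared members of 1 number in their name, copies counted once, the range of log2 folds within a family had a median of 0.18, from 0.05 for miR-196 to 1.11 for miR-92. The miR-378 range of 0.21 was the sixth from the smallest. All members lay below 0 in 5 of the 9 families with TMM, miR-378 among them. In 4 other families of the 9, 1 member also held most counts. miR-30a held 69.9% of its family in HC and 71.6% in NC, miR-29a 77.3% in HC and 78.9% in NC, and miR-101a 85.9% in HC and 86.6% in NC. miR-92a-1 held 92.6% in HC and 92.5% in NC. The leading share was thus lower in HC in 3 of these families and slightly higher in miR-92, as it was higher for miR-378a. These families were compared after their values were seen.

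**Figure D5:**
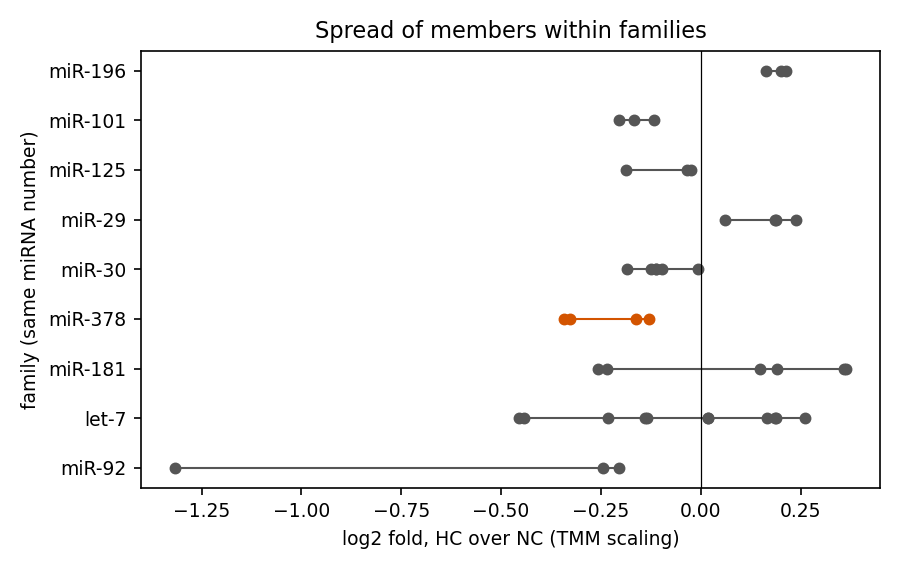
Log2 fold of HC over NC (TMM scaling) of the members of 9 families, 1 point per precursor or set of copies, ordered by range. The miR-378 family (orange) spans -0.34 to -0.13 and lies wholly below 0.

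Set against muscle microRNAs in the same library, a comparison that also needs no scaling, miR-378a did not keep 1 ratio. It stood at 15.7% of miR-133a-1, a muscle-specific microRNA, in HC and at 17.1% in NC, a log2 difference of -0.12 (-0.13 to -0.12). miR-1a-1 is known to enhance mitochondrial translation in mouse muscle cells. Relative to its counts, those of miR-378a were 5.60-fold in HC and 8.49-fold in NC, a difference of -0.60 (-0.62 to -0.58). Relative to miR-486a, which is abundant in muscle and in erythrocytes, miR-378a stood at 7.23% in HC and 5.98% in NC, a difference of 0.27 (0.27 to 0.28). Relative to miR-206, induced in regenerating fibres, the interval held 0 at -0.04 (-0.12 to 0.05). All 4 members were lower relative to miR-1a-1 in HC, from -0.81 for miR-378d to -0.60 for miR-378a, and all 4 were higher relative to miR-486a, from 0.06 for miR-378d to 0.27 for miR-378a.

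Other microRNAs linked to mitochondria and energy metabolism in muscle did not share a direction. Of 19 listed precursors, 16 were compared. Their median log2 fold was -0.03, beside -0.00074 over all compared precursors, with 4 intervals above and 9 below equality. Over all 222 compared precursors, 88 intervals were above and 97 below. With copies counted once, since miR-1a and miR-133a each have 2 precursors in the list, the median was -0.053, with 3 intervals above and 8 below among 14. Over all 202 compared precursors or sets of copies counted that way, the median was -0.0054, with 78 intervals above and 89 below. Past 1.5-fold, 1 listed precursor was higher in HC and 0 were lower, against 6 higher and 10 lower over all compared precursors. That one was miR-499, whose host gene Myh7b encodes a slow-type myosin, at 12.4 CPM in HC and 7.98 CPM in NC (log2 fold 0.63, 0.42 to 0.85). The lowest, named after its value was seen, was miR-181c, which acts on a mitochondrial transcript in rat heart, at 364 CPM in HC and 435 CPM in NC (-0.26). Both miR-378b and miR-378d lay below it.

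Among 8 listed precursors from introns of metabolic or contractile genes, a list that includes miR-378a, 6 were compared and their median was -0.09. It was -0.053 with copies counted once and -0.13 when the mean had to reach only 1 CPM. The value of -0.13 is that of miR-378a itself, and -0.09 is the midpoint between miR-378a and miR-107. This list is therefore no separate background for miR-378a. miR-499 was again the 1 past 1.5-fold. miR-103-1 of Pank3, a gene of coenzyme A synthesis, was -0.16 and so close to miR-378a, as was miR-103-2 of Pank2 at -0.16. These copies had nearly equal counts and cannot be separated. The brown fat and adipocyte list, relevant because miR-378 is known to promote brown fat in mice, had 12 of 13 precursors compared and a median of -0.01. Past 1.5-fold it held 0 higher and 1 lower in HC, miR-182 at -0.61 (278 CPM in HC and 424 CPM in NC). The medians of the 3 lists lay above 0 with plain totals.

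By level, the precursors most like miR-378a over the 2 libraries were miR-126a, miR-126b, miR-181a-1, let-7f-2 and let-7f-1, at distances of 0.16 to 0.26 in log2 CPM. Their log2 folds ran from -0.45 for let-7f-2 to 0.19 for miR-181a-1. The distance used the same HC and NC levels as the fold, so these folds say nothing separate about level and fold. The compared precursors within 500 kb of a member were miR-143 and miR-145a for miR-378a and miR-26a-2 for miR-378d. miR-143, 251 kb from miR-378a, had 69082 CPM in HC and 76298 CPM in NC, with a log2 fold of -0.14, and the ratio of miR-378a to it was 14.8% in HC and 14.7% in NC. miR-145a was at -0.06. miR-26a-2, 285 kb from miR-378d, was at -0.02, against -0.34 for miR-378d itself. No other listed precursor lay within 500 kb of miR-378b or miR-378c.

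The HC library held 31198050 counts over precursors and the NC library 43848576. Markers of skeletal muscle were abundant in both, all 10 listed precursors being compared, at summed levels of 419376 CPM in HC and 510682 CPM in NC. miR-486a and miR-486b, which have the same counts and were both added, make up most of this and all of the difference. Without them the other 8 summed to 136265 CPM in HC and 136069 CPM in NC. Most of that sum is 2 copies with nearly equal counts, miR-133a-1 and miR-133a-2. miR-133a-1 had 65127 CPM in HC and 65383 CPM in NC, and miR-133a-2 65109 CPM in HC and 65374 CPM in NC. The copies miR-1a-1 and miR-1a-2 were also both added. Among the 8, miR-1a-1 (log2 fold 0.47), miR-1a-2 (0.47), miR-208b (0.55) and miR-499 (0.63) were higher in HC. Lower in HC were miR-133b (-0.20), miR-206 (-0.09), miR-133a-1 (-0.0057) and miR-133a-2 (-0.0059). Summed erythrocyte markers were 609 CPM in HC and 468 CPM in NC, and leukocyte markers, 3 of 4 found under the listed names, were 519.5 CPM in HC and 528 CPM in NC. This near-equal sum joins miR-223, at 340 CPM in HC and 251 CPM in NC, with miR-150, at 142 CPM in HC and 238 CPM in NC. miR-142a, outside the listed names, was 1784 CPM in HC and 1771 CPM in NC. Endothelial miR-126a was 11407 CPM in HC and 11144 CPM in NC, the 2 smooth muscle markers 69344 CPM in HC and 76571 CPM in NC, and the 7 epithelial markers 139 CPM in HC and 188 CPM in NC. The liver marker was 0.21 CPM in HC and 0.22 CPM in NC, and the 3 neuronal markers found under the listed names summed to 14.9 CPM in HC and 24.9 CPM in NC. Those 3 are copies of miR-9 with nearly equal counts, so the same signal was added 3 times. miR-9-1 alone had 4.96 CPM in HC and 8.29 CPM in NC. The liver and neuronal markers were below the minimum for comparison. No marker found was at 0 in either library. The part of these differences in the miR-378 values was not tested. In bulk tissue, fewer cells of a type and less RNA per cell cannot be told apart.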

How the data were processed

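For each group, 1 library of hindlimb muscle small RNA was available, made after Trizol and miRvana extraction per the labels' protocols. The authors deposited raw counts for 1187 miRNA hairpins, with mm10 positions. Tools named in the submitters' processing notes are TopHat2 2.0.10, HTSeq 0.5.4 and CASAVA 1.8.2, without their roles. How reads were trimmed, and how those with several alignments were counted, was not stated. A second deposited column, headed RPM, holds a signal that the authors scaled: each value equals the count times a constant, with denominators of 27222821 in HC and 32252170 in NC, and gave only an alternative scaling. Summary rows stayed out of library sizes.

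TMM library sizes came from edgeR 4.0.16 (R 4.3.3), with no edgeR test. CPM is the count per scaled library size, and 222 precursors had a mean of at least 10. Log2 folds carry exact conditional binomial (Clopper-Pearson) intervals, ratios between precursors large-sample intervals, and shares exact intervals. PCR copies could not be recognised, so intervals cover counting error only. A count of 0 allows up to 0.0918 CPM in HC and 0.0717 CPM in NC (3 counts). Copies were precursors that overlap, or that share a number and differ by at most 1% in both libraries. Folding used RNAfold 2.7.2. The procedure was tested on simulated counts with counting error only, without spread between animals or reads shared between precursors. The planted folds were larger than those of the members, so differences of their size were not tested. Members, lists, alternatives and the naming rule (list members past 1.5-fold, otherwise the 4 most abundant, the 5 most like miR-378a and neighbours within 500 kb) were chosen with earlier results of these data known. miRNAs named as members of compared families or as muscle references lie outside that rule.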

Additional observations from a re-analysis of the deposited data

Results flagged for a closer look

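Counts outside all precursors made up 55.9% of listed counts in HC and 44.1% in NC, a share above that of the control in data that no comparison here used.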

How the results depend on the processing

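No paired analysis was possible because each group held 1 library, and for the same reason no library could be left out. With plain totals, miR-378a turned to 0.0038 (log2 fold of HC over NC), miR-378b was -0.19, miR-378c -0.028, miR-378d -0.21 and the family sum -0.029. With the authors' denominators they were -0.24, -0.44, -0.27, -0.46 and -0.28. Without the 10 most abundant precursors in the totals, miR-378a was -0.11 and the sum -0.15, and miR-378a standing for the family was -0.13. These scalings shift every log2 fold by 0.13, -0.11 and 0.02. The other member values moved by less than their counting interval, as did all values with RLE size factors and with TMM factors from the 222 compared precursors. The medians of the mitochondrial, intronic and brown fat lists turned to 0.10, 0.042 and 0.13 with plain totals, and were -0.14, -0.20 and -0.12 with the authors' denominators. With 1 precursor per set of copies the mitochondrial and intronic medians were both -0.053, and when the mean had to reach 1 CPM they were -0.053 and -0.13. The brown fat median turned to 0.011 without the 10 most abundant precursors in the totals. Precursors past 2-fold numbered 13 when the mean had to reach 1 CPM and 33 with counts above 3 in at least 1 library, and those past 1.5-fold 35 and 57, since more low precursors are then compared. Ratios and shares within the family do not depend on scaling. Depth did not limit the members, whereas a single library per group limits every value.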
